A study of Mus musculus with 14 samples.

Results

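Kdm2b, Kdm5a and Kdm5b are genes for enzymes described as taking methyl groups off lysine 4 of histone H3 (H3K4). The H3K4me3 mark at these genes was followed in the cerebral cortex of adult mice exposed to nicotine or saccharin during development. The members were all regions with values in both deposited tables whose gene symbol was Kdm2b, Kdm5a or Kdm5b. This gave 5 of 14881 regions, and 3 of 10542 genes with a symbol: Kdm2b had 3 regions, and Kdm5a and Kdm5b had 1 each. H3K4me3, trimethylated lysine 4 of histone H3, marks mainly active promoters, and was measured by chromatin immunoprecipitation and sequencing (ChIP-seq) in 14 libraries from C57BL/6J mice aged 3 months. All groups share strain, age, tissue and antibody. The groups were postnatal-only saccharin and postnatal-only nicotine (4 libraries each), and pre- and postnatal saccharin and pre- and postnatal nicotine (3 libraries each). Saccharin solution, without nicotine, was the comparison group. All samples carry 1 and the same treatment text, which describes solution given to pregnant mice from conception, removal when the offspring were 21 days old and rest to day 90. What was given postnatally only is therefore known just through the names of the groups. Nothing in the labels ties libraries to separate animals, so p-values measure the spread between these samples, which may be technical.

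H3K4 methylation is written by methyltransferase complexes and removed by demethylases of separate families. Kdm5a and Kdm5b belong to the KDM5 family, whose JmjC domain removes the trimethyl and dimethyl forms of H3K4. Kdm2b also has a JmjC domain, for which both H3K36 and H3K4 have been described as substrates, and a CXXC zinc finger that binds unmethylated CpG dinucleotides. It brings a variant Polycomb repressive complex to CpG islands. A shorter Kdm2b protein made from an internal start lacks the JmjC domain and keeps the zinc finger. The KDM5 genes are studied in brain because mutations in members of this family cause intellectual disability. The mark at a gene that encodes an H3K4 demethylase is a readout of that gene's own promoter and does not measure the enzyme.

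Libraries 1 and 2 of each postnatal group, and libraries 3 and 4, differed by no more than counting noise (variance 0.985 to 1.08 times that of counting, taking adjusted values as counts), while other pairs of the same group differed by 1.94 to 2.60 times. The mean of each of these pairs stood for 1 sample, leaving 2 nicotine against 2 saccharin samples for the postnatal exposure and 3 against 3 for the pre- and postnatal exposure. The summed signal, in read counts already adjusted by the authors, ranged in the postnatal libraries from 2004918 to 2489860 and in the pre- and postnatal ones from 1445810 to 2372855. The raw depth is unknown. The 15 regions with a postnatal mean over 3000 held 8.30% to 25.5% of the signal of a postnatal library, and 19.1% to 49.7% after pre- and postnatal exposure. Of 9 fixed neuron marker genes 4 had a region (Slc17a7 and Tbr1 of excitatory neurons, Gad2 of inhibitory neurons, and Snap25). Of 5 microglia markers only Irf8 had a region, with a signal of 1.01 to 11.4 in the libraries, and of 6 astrocyte markers only Slc1a2 did. In this bulk tissue, fewer marked cells and less mark per cell cannot be told apart.

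The 3 Kdm2b regions lie on chromosome 5 of build mm9, the build of the deposited tables, and are named here by their order along the gene, which is read on the minus strand. The upstream region spans 123437550 to 123440058 (2508 bp), the middle region 123401882 to 123402957 (1075 bp) and the internal region 123349131 to 123351149 (2018 bp). All carry the transcript identifier NM_001003953. The Kdm5a region (NM_145997) spans 120313080 to 120315674 on chromosome 6 (2594 bp), and the Kdm5b region (NM_152895) spans 136456327 to 136458496 on chromosome 1 (2169 bp). All but the middle Kdm2b region are wider than the median of 1583 bp. Positions in exons, introns or untranslated regions were not analysed here.

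RefSeq promoter sequences (build GRCm38.p6) matched 2 of the 3 genes, Kdm2b with 4 starts and Kdm5b with 1. The 4 Kdm2b starts fall into 2 clusters, of 17 bp and 592 bp extent. From the lowest to the highest start the distance is 88.8 kb in GRCm38.p6, and from the centre of the internal to that of the upstream region it is 88.7 kb in mm9. Coordinates were not converted between the builds, so this match rests on spacing alone. The middle region lies 36.4 kb from the upstream region, centre to centre, and none of the 4 starts was matched to it by spacing. The 250 bases before 3 starts are shown because H3K4me3 marks mainly active promoters and the CpG content of these stretches differs. CpG dinucleotides are in capitals.
Kdm2b, internal start, chr5:122900351-122900600, minus strand: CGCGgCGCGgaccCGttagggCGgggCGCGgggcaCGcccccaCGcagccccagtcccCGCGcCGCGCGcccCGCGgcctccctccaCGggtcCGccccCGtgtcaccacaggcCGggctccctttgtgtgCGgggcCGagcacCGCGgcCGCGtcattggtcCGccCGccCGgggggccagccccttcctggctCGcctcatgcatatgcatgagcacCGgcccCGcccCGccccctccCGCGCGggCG
Kdm2b, upstream start, chr5:122989100-122989349, minus strand: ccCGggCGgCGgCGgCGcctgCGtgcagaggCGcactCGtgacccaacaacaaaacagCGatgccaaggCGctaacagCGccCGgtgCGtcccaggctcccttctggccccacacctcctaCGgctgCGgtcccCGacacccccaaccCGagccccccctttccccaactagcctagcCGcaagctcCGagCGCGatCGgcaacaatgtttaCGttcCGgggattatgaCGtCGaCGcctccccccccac
Kdm5b, chr1:134559928-134560177, plus strand: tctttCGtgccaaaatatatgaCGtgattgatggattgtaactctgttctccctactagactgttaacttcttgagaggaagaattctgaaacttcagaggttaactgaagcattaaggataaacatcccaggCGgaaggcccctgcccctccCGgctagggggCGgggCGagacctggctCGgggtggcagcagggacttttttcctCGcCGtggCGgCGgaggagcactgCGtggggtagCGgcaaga

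The window at the internal Kdm2b start held 38 CpG dinucleotides, more than 98.1% of the 32851 promoter windows of the same length, with 80.8% G and C. The upstream Kdm2b window held 27 (91.4% of windows held fewer), and the Kdm5b window held 13 (68.5% held fewer). The other start of the upstream cluster, 592 bp away (chr5:122988508-122988757), had a window with 12 (66.5% held fewer) and no GC box. The median window held 6. 6 motifs were searched on both strands, none of which contains another. The GC box GGGCGG had 6 matches at the internal Kdm2b start, 1 at the upstream start shown and 1 at Kdm5b, and 32.7% of all windows held it. CCAAT had 1 match, at the internal Kdm2b start (33.8% of windows). Binding motifs of ETS factors, spelled CCGGAAG, had no match in the 3 windows and lay in 6.91% of all windows. The cyclic AMP response element, searched as TGACGTCA, had none (1.55% of windows). The TATA box, in the form TATAAA, had none either (12.4%), nor had the NRF1 motif (0.782%).

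Kdm5b carried the strongest mark of the 5 regions. Divided by the width of the region, its signal was 233 to 293 per kb in the 8 postnatal libraries, where the median region had 48.2 to 50.9. In the 6 pre- and postnatal libraries it was 151 to 174 per kb, against medians of 31.8 to 34.7. Kdm5b stood above 99.3% to 99.8% of all regions per kb in the 14 libraries. The tables were adjusted separately, so levels are compared only within a table.

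The internal Kdm2b region came second in all 14 libraries, with 131 to 171 per kb in the postnatal and 64.6 to 110.3 per kb in the pre- and postnatal libraries. It stood above 82.2% to 96.6% of regions. Below it came Kdm5a (38.6 to 47.8 per kb postnatal, 20.1 to 37.1 pre- and postnatal), the upstream Kdm2b region (34.1 to 45.3 and 17.0 to 28.4) and the middle Kdm2b region (25.2 to 48.3 and 12.7 to 27.0). Per kb, these 3 ranges overlapped in both tables, their order changed between libraries, and they did not differ beyond their spread. Not divided by width, the middle Kdm2b region held less than the upstream region and Kdm5a in both tables. Its signal was 27.1 to 51.9 postnatally and 13.6 to 29.0 pre- and postnatally. The upstream region held 85.5 to 114 and 42.6 to 71.3, and Kdm5a 100.1 to 124 and 52.1 to 96.2. The 2 KDM5 genes thus lay far apart: every library had more signal per kb at Kdm5b than at Kdm5a.

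**Figure D1:**
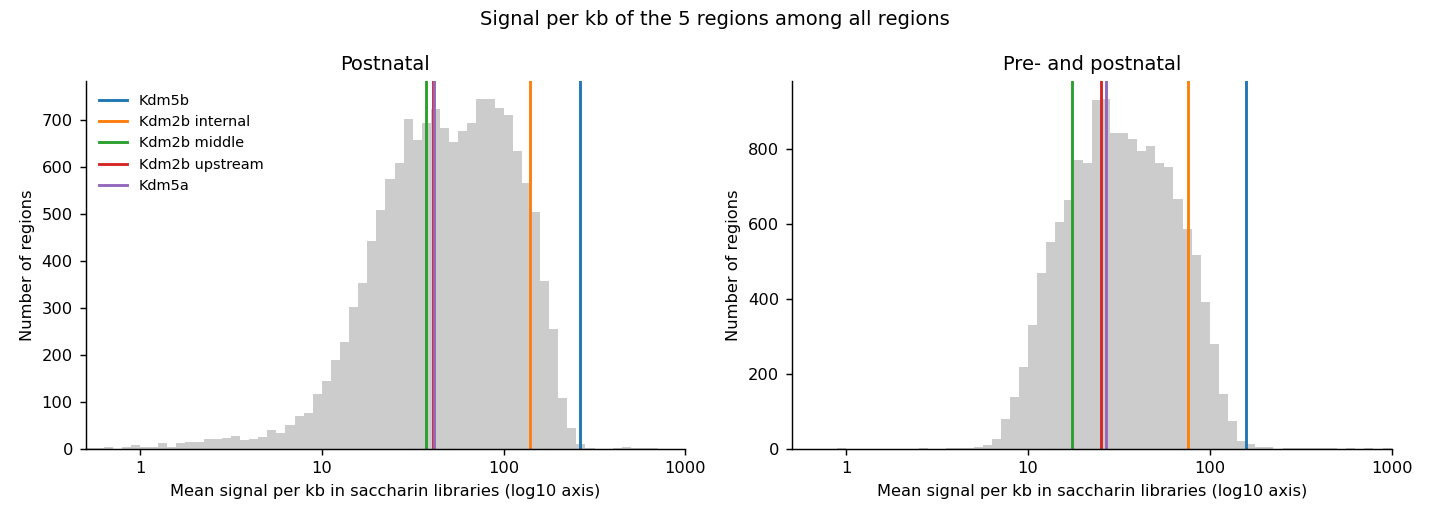
Histograms of the mean signal per kb (log10 axis, saccharin libraries) over all regions, with values under 0.5 drawn at 0.5 and values over 1000 not shown, for the postnatal table (left) and the pre- and postnatal table (right). Vertical lines mark the 5 regions: Kdm5b lies in the right tail in both tables, the internal Kdm2b region right of the centre, and the other 3 regions close together left of it.

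The first comparison asked whether nicotine in the postnatal period alone changed the mark at these genes in the adult. At Kdm5b the nicotine libraries 1 to 4 held a signal of 575, 619, 634 and 594, and the saccharin libraries 620.1, 635, 504 and 517. Saccharin libraries 3 and 4 were the low ones, and the groups overlapped. The means were 605 ± 12.0 (SD, n = 2) with nicotine and 569 ± 82.7 with saccharin, a log2 difference of 0.10 ± 0.12 (SE; 95% interval -0.15 to 0.35). Without saccharin libraries 3 and 4 the difference was -0.05, so its direction rests on that pair. Without saccharin libraries 1 and 2 it was 0.24 (unadjusted p = 0.0453, adjusted p = 0.915 in limma).

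At the internal Kdm2b region the nicotine libraries held 344, 344, 288 and 282 and the saccharin libraries 291, 264, 292 and 280.2. Nicotine libraries 1 and 2 stood above all others, and libraries 3 and 4 lay within the saccharin range. The means were 315 ± 41.9 and 282 ± 6.09 (SD, n = 2 each), which differ on the log2 scale by 0.15 ± 0.11 (SE; -0.09 to 0.39). It was 0.02 without nicotine libraries 1 and 2, and 0.29 without nicotine libraries 3 and 4 (unadjusted p = 0.0691, adjusted p = 1.00 in limma).

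The upstream Kdm2b region went the other way, with 92.9, 85.6, 86.3 and 101 in the nicotine libraries and 85.5, 107, 114 and 102 in the saccharin libraries. The libraries overlapped, and the averaged samples did not (89.2 and 93.6 with nicotine, 96.5 and 108 with saccharin). The means were 91.4 ± 3.11 and 102 ± 8.16 (SD, n = 2 each), which differ on the log2 scale by -0.16 ± 0.16 (SE; -0.49 to 0.17). This was the only 1 of the 5 regions whose samples did not overlap, which held for 29.1% of all tested regions. Without saccharin libraries 3 and 4 the difference was -0.08, and without saccharin libraries 1 and 2 it was -0.24.

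The middle Kdm2b region held 36.6, 27.1, 38.2 and 51.9 with nicotine and 45.2, 33.1, 44.4 and 37.2 with saccharin, a log2 difference of -0.07 ± 0.28 (SE). The Kdm5a region held 109, 124, 106 and 100.1 with nicotine and 108, 105, 103 and 115 with saccharin, a log2 difference of 0.02 ± 0.15. At both regions the groups overlapped, and the sign turned without nicotine libraries 1 and 2 (0.17 and -0.06). Without nicotine libraries 3 and 4 the differences were -0.32 and 0.11.

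None of the 5 regions passed the test. An adjusted p under 0.05 in limma was reached by 0 of 14873 regions (0%) after postnatal exposure, and each of the 5 had an adjusted p of 1.00. The log2 difference was above 0 at 3 of the 5, as at 49.1% of tested regions. At an unadjusted p under 0.05 limma had 281 regions (1.89%), none of them among the 5, where the lowest was 0.198 at the internal Kdm2b region. The intervals leave room for a nicotine signal between 0.898 and 1.27 times that of saccharin at Kdm5b, and between 0.941 and 1.31 times at the internal Kdm2b region. Signal in the 15 strongest regions made up a high share in 1 nicotine and 1 saccharin sample (25.2% and 18.7%) and low in the other 2 (10.04% and 8.47%). The difference at the internal Kdm2b region was 0.27 between the high-share samples and 0.04 between the low-share ones, that at Kdm5b 0.22 and -0.03, and that at the upstream Kdm2b region -0.27 and -0.04. The sign turned at the middle Kdm2b region (-0.35 and 0.20) and at Kdm5a (0.10 and -0.05). The part of this share in these values was not tested.

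**Figure D2:**
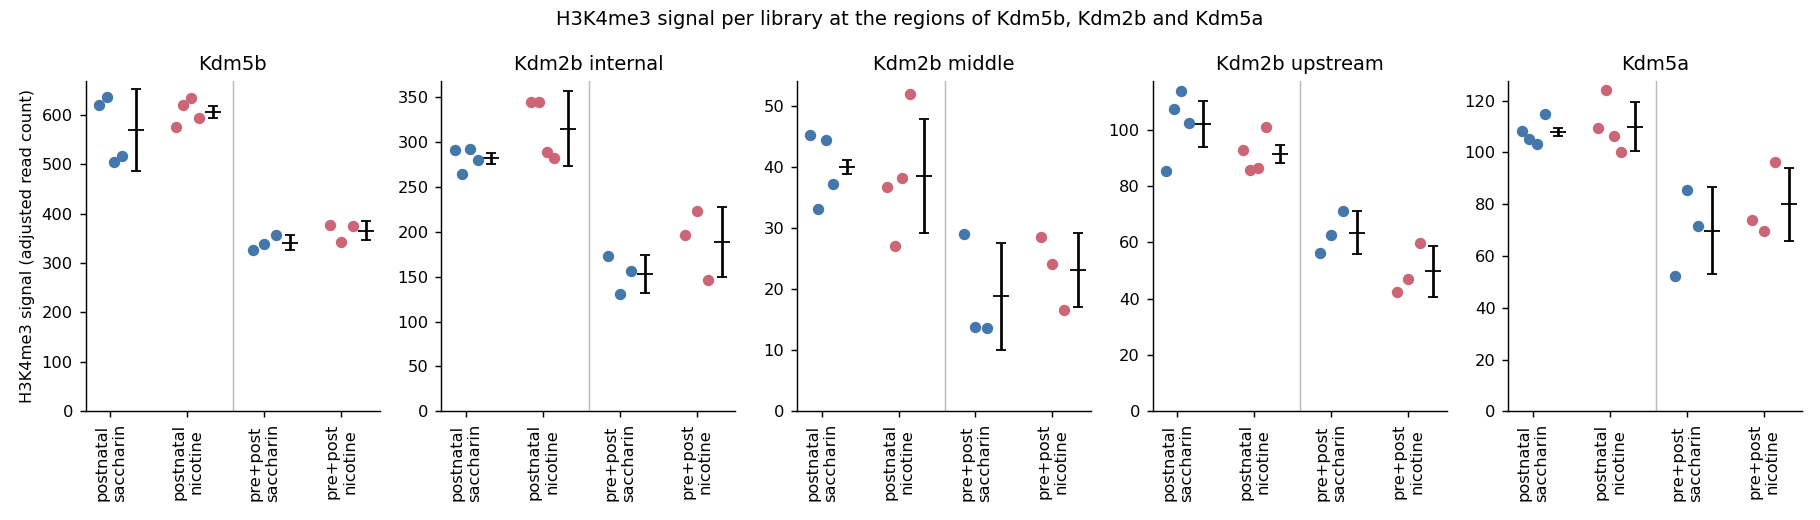
H3K4me3 signal (adjusted read count, axis from 0) in every library at the 5 regions; blue points are saccharin and red points nicotine libraries, and black bars show the mean and SD of the samples after near-identical postnatal libraries were averaged (n = 2 per postnatal group, n = 3 per pre- and postnatal group). Postnatal and pre- and postnatal values come from tables adjusted separately, and within each table the nicotine and saccharin points overlap at every region.

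Nicotine given before and after birth was then compared with saccharin given over the same period. Kdm5b held 377, 343 and 376 in nicotine libraries 1, 3 and 4 and 327, 339 and 357 in saccharin libraries 1 to 3. The highest saccharin library lay above the lowest nicotine library. The means were 365.5 ± 19.1 and 341 ± 15.4 (SD, n = 3 each), which differ on the log2 scale by 0.10 ± 0.14 (SE; -0.18 to 0.38).

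The internal Kdm2b region held 196, 223 and 146 with nicotine and 173, 130.4 and 156 with saccharin. Nicotine libraries 1 and 3 were above all saccharin libraries, and nicotine library 4 was below 2 of them. The means were 188 ± 38.8 and 153 ± 21.3 (SD, n = 3 each), which differ on the log2 scale by 0.28 ± 0.17 (SE; -0.08 to 0.64). The difference was 0.46 without nicotine library 4 (unadjusted p = 0.0166, adjusted p = 0.999 in limma), and over the 6 fits that left out a library it ran from 0.15 to 0.46.

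The upstream Kdm2b region held 42.6, 46.9 and 59.9 with nicotine and 56.2, 62.7 and 71.3 with saccharin. Nicotine libraries 1 and 3 were below every saccharin library, and library 4 lay above saccharin library 1. The means were 49.8 ± 9.02 and 63.4 ± 7.58 (SD, n = 3 each), which differ on the log2 scale by -0.35 ± 0.23 (SE; -0.84 to 0.14).

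The middle Kdm2b region held 28.5, 24.1 and 16.7 with nicotine and 29.0, 13.8 and 13.6 with saccharin, a log2 difference of 0.34 ± 0.41 (SE). Kdm5a held 73.9, 69.8 and 96.2 with nicotine and 52.1, 85.6 and 71.6 with saccharin, a log2 difference of 0.21 ± 0.22. Both groups overlapped at both regions. At Kdm5a the difference was 0.02 without saccharin library 1, 0.07 without nicotine library 4 and 0.37 without saccharin library 2. At the middle Kdm2b region it was 0.68 without saccharin library 1, 0.55 without nicotine library 4, 0.16 without saccharin library 3, 0.17 without saccharin library 2 and 0.18 without nicotine library 1.

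None of the 5 regions passed here either. Of 14879 regions 0 (0%) reached an adjusted p under 0.05 in limma, and each of the 5 had an adjusted p of 0.987. The unadjusted p was under 0.05 at 534 regions (3.59%), none of them among the 5, with the lowest of 0.115 at the internal Kdm2b region. The log2 difference was above 0 at 4 of the 5, where 50.5% of tested regions lay above 0, and 4 of the 5 had the same sign in both exposures, where 50.2% of regions did. The groups overlapped at all 5 regions, while 8.95% of tested regions had groups that did not. The interval at Kdm5b runs from 0.882 to 1.30 times saccharin and that at the internal Kdm2b region from 0.949 to 1.56 times. The interval is wider at the middle Kdm2b region (0.697 to 2.29 times), whose signal is the lowest of the 5.

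**Figure D3:**
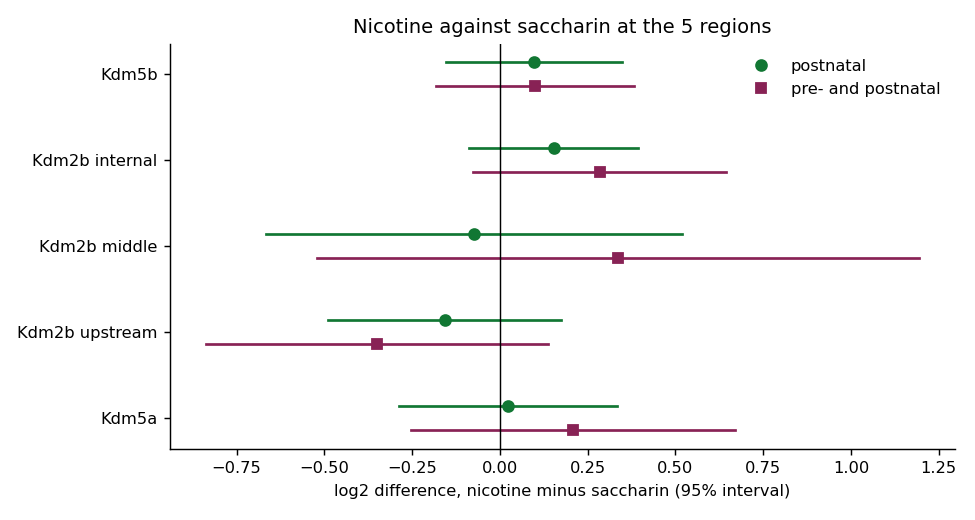
log2 difference of nicotine minus saccharin at each of the 5 regions with its 95% interval from limma; green circles are the postnatal and purple squares the pre- and postnatal exposure. All 10 intervals include 0, and the internal and upstream Kdm2b regions lie on opposite sides of 0 in both exposures.

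The nicotine effects of the 2 exposures were then compared directly, as the pre- and postnatal minus the postnatal log2 difference in a joint limma fit of all samples with a mean for each group. The scaling of a table cancels within its own difference. The fit used 1 estimate of the spread of a region for both tables, although their spreads differed. Regions of signal like the internal Kdm2b region had a median residual SD of 0.09 postnatally and 0.18 pre- and postnatally. At Kdm5b the residual SD was 0.15 and 0.07, the other way round. The SEs and p-values of the difference between exposures rest on the shared estimate. The result was 0.0040 ± 0.18 (SE; 95% interval -0.38 to 0.39) at Kdm5b, 0.13 ± 0.25 at the internal, 0.41 ± 0.55 at the middle and -0.19 ± 0.30 at the upstream Kdm2b region, and 0.19 ± 0.31 at Kdm5a. 0 of 14881 regions (0%) passed in limma, 219 (1.47%) had an unadjusted p under 0.05, and the lowest unadjusted p among the 5 regions was 0.465. 4 of the 5 differences lay above 0, as did 49.4% of all regions. The difference at the internal Kdm2b region became -0.0040 without postnatal nicotine libraries 3 and 4, and that at Kdm5a -0.0077 without saccharin library 1 of the pre- and postnatal table. Over the fits that left out a sample it ran from -0.14 to 0.15 at Kdm5b, from -0.0077 to 0.34 at Kdm5a, and from -0.0040 to 0.30 at the internal, 0.17 to 0.75 at the middle and -0.33 to -0.09 at the upstream Kdm2b region.

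The internal and upstream Kdm2b regions had estimates of opposite sign in both exposures, neither of which passed the test, and their ratio was chosen for description after the values were seen. The signal per kb at the internal region was divided by that at the upstream region in the same library, a ratio in which the scaling of a library cancels. In the postnatal nicotine libraries 1 to 4 the ratio was 4.60, 5.0, 4.15 and 3.47, and in the saccharin libraries 4.22, 3.06, 3.19 and 3.40. Nicotine libraries 1 and 2 had the highest ratios, and libraries 3 and 4 overlapped with saccharin. The averaged samples had a mean ratio of 4.29 ± 0.715 (SD, n = 2) under nicotine and of 3.43 ± 0.200 under saccharin, 0.31 apart on the log2 scale (exact two-sided permutation p = 0.333, the smallest that 2 against 2 samples allow). The averaged samples did not overlap (4.79 and 3.78 with nicotine, 3.57 and 3.29 with saccharin). The same held for the signal of 29.1% of all tested regions, among them the upstream region used in this ratio. The share over other ratios was not taken. Without nicotine libraries 1 and 2 the difference was 0.14, and without nicotine libraries 3 and 4 it was 0.48.

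In the pre- and postnatal nicotine libraries 1, 3 and 4 the ratio was 5.73, 5.90 and 3.03, and in saccharin libraries 1 to 3 it was 3.82, 2.58 and 2.72. Nicotine library 4 lay within the saccharin range. The means were 4.89 ± 1.61 and 3.04 ± 0.675 (SD, n = 3 each), 0.64 apart on the log2 scale (two-sided exact permutation p = 0.2, where 3 against 3 samples allow no less than 0.1). Without nicotine library 4 the difference was 0.96. Nicotine libraries 1 and 3, with the 2 highest ratios, had the lowest and the highest share in the 15 strongest regions (19.1% and 49.7%). The nicotine mean was higher in both exposures. On the log2 scale this follows from the opposite signs for which the ratio was chosen, so it is no further result. With these numbers of samples the test cannot reach 0.05 in either exposure, so its p-values do not decide whether the ratios differ.

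Over the 10 samples, with each table centred on its own mean, the internal and upstream Kdm2b regions had opposite deviations (Pearson r = -0.77, exact permutation p = 0.0372 within tables, and Spearman rho of within-table ranks -0.69, exact permutation p = 0.0642). 10 pairs of regions were examined, and the adjusted p was 0.372 for r and 0.54 for rho, so the relation failed the correction. Without the 2 samples farthest from the median of the internal region r was -0.75. It was -0.60 over the 4 postnatal samples, -0.79 over the 6 pre- and postnatal ones, and -0.63 about the group means. Kdm5a and Kdm5b had r = 0.36 (exact permutation p = 0.235, adjusted p = 0.47; rho 0.29, exact permutation p = 0.511), which became -0.23 without the 2 farthest samples and so rests on them. The internal Kdm2b region and Kdm5b had r = 0.03 (exact permutation p = 0.938, and rho -0.07, exact permutation p = 0.911). Opposite deviations were not particular to the internal and upstream regions. The middle Kdm2b region had r = -0.70 with the upstream region and -0.65 with Kdm5a (exact permutation, adjusted p = 0.42 each). About the group means Kdm5a had r = -0.91 with the middle, -0.75 with the internal and 0.64 with the upstream region. Over the other pairs r was 0.58 (internal, middle), 0.15 (upstream, Kdm5a), -0.08 (middle, Kdm5b), -0.32 (upstream, Kdm5b) and -0.37 (internal, Kdm5a).

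**Figure D4:**
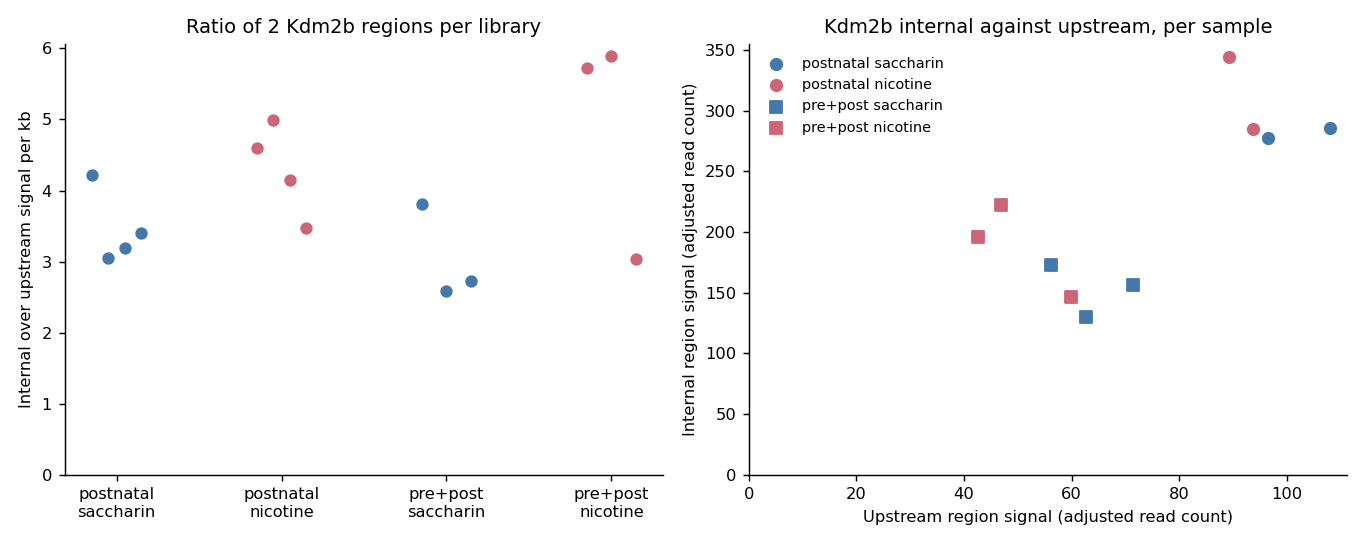
Left, the ratio of signal per kb at the internal over the upstream Kdm2b region in each library (axis from 0); right, the signal of the internal against the upstream region in each sample, with circles for the postnatal and squares for the pre- and postnatal table, blue for saccharin and red for nicotine. The lowest of the 14 ratios is 2.58, and the highest ratios belong to nicotine libraries while others lie among the saccharin values.

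The spread of each member is given beside the median of regions of like signal (within 1.25-fold), with no test of the difference. In the pre- and postnatal table Kdm5b varied little, with a residual SD of 0.07 on the log2 scale where 183 regions of like signal had a median of 0.15. In the postnatal table it was 0.15, against a median of 0.09. The internal Kdm2b region had 0.14 against 0.09 in the postnatal and 0.26 against 0.18 in the pre- and postnatal table. At the upstream Kdm2b region it was 0.09 against 0.14 and 0.21 against 0.29. The middle Kdm2b region had 0.25 against 0.25 and 0.50 against 0.45. Kdm5a lay below its like regions in the postnatal table (0.09 against 0.14) and above them in the pre- and postnatal table (0.31 against 0.25). These values rest on 2 and 4 residual degrees of freedom.

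The regions next to the members were read as a check of the surroundings. Upstream of Kdm5b, 2.22 kb from its region, lies an unnamed region (136452415 to 136454107) with a signal of 53.7 to 78.8 in the postnatal libraries and log2 differences of -0.06 ± 0.19 (SE) postnatal and -0.34 ± 0.30 pre- and postnatal. The next region on the other side, 84.0 kb away and also unnamed, differed by 0.11 and 0.06. Beside Kdm5a, 5.56 kb away, the Ccdc77 region held only 7.55 to 22.5 in the postnatal libraries and differed by 0.0074 ± 0.47 and 0.01 ± 0.65. Il17ra, the interleukin 17 receptor gene 97.1 kb on the other side, differed by 0.08 in both exposures. Around Kdm2b, Orai1, which encodes a calcium channel of the plasma membrane (24.5 kb from the upstream region), differed by 0.03 and -0.06, and Rnf34, a ubiquitin ligase gene (47.9 kb from the internal region), by 0.13 and -0.19. None of these neighbours passed in limma (adjusted p 0.987 to 1.00).

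Other genes listed as H3K4 demethylases were read at their strongest region, and the substrates of their enzymes were not examined here. Of 5 listed genes 3 had a region: Kdm1a, which encodes the flavin-dependent demethylase LSD1, Kdm2a, the paralogue of Kdm2b, and Kdm5c, an X-linked KDM5 gene. Per kb, Kdm1a had a median signal of 156 over postnatal libraries, Kdm5c 51.7 and Kdm2a 16.9. All 3 lay higher with nicotine after postnatal exposure (median log2 difference 0.08, against -0.0036 over all tested regions, of which 49.1% lay higher), from 0.07 ± 0.16 (SE) at Kdm5c to 0.17 ± 0.42 at Kdm2a. After pre- and postnatal exposure Kdm2a (0.36 ± 0.43) and Kdm5c (0.14 ± 0.24) lay higher and Kdm1a lower (-0.12 ± 0.18), against 50.5% of tested regions. None passed the test.

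Among 16 of 26 listed H3K4 methyltransferase genes and complex subunits with a region, which put the methyl groups on, 10 lay higher with nicotine in each exposure and 0 passed in either (median 0.04 postnatal and 0.06 pre- and postnatal). Of all tested regions 49.1% lay higher postnatally and 50.5% pre- and postnatally. The ends of the list were Wdr5, a scaffold subunit (0.20 ± 0.11, SE), and Hcfc1, a subunit that binds transcription factors (-0.17 ± 0.22), after postnatal exposure. They were Ash2l, a core subunit (0.28 ± 0.18), and again Hcfc1 (-0.44 ± 0.22) after pre- and postnatal exposure. Of 17 of 22 genes listed as chromatin readers, mainly of H3K4, 7 lay higher postnatally (median -0.0053) and 11 pre- and postnatally (median 0.10). 0 passed, and the ends were Phf20 (0.16 ± 0.12) and Ing4 (-0.75 ± 0.44), then Rag2 (1.04 ± 0.58) and Chd4 (-0.26 ± 0.20). Ing4 and Rag2 had low signal, with medians of 17.8 per kb over postnatal and 18.5 per kb over pre- and postnatal libraries, respectively.

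Partners of Kdm2b in its variant Polycomb complex had a region for 9 of 10 genes, of which 8 lay higher postnatally (median 0.05) and 5 pre- and postnatally (median 0.02). Over all tested regions 49.1% lay higher postnatally and 50.5% pre- and postnatally. The genes of a list were measured in the same few samples, so these counts are no test of a list. Yaf2, a subunit that joins the complex to its ring-finger ligase, was the highest in both exposures (0.20 ± 0.11 and 0.15 ± 0.14, SE). The lowest were Bcorl1, a corepressor (-0.05 ± 0.16), postnatally and Pcgf1, the ring-finger protein that defines this complex (-0.55 ± 0.23, unadjusted p = 0.0285, adjusted p = 0.987 in limma), pre- and postnatally. Of 21 of 22 genes for partners of KDM5 proteins, most of them in Sin3 and NuRD corepressor complexes, 15 lay higher postnatally (median 0.03) and 9 pre- and postnatally (median -0.02). The ends were Gatad1 (0.24 ± 0.12), a zinc finger protein found with Kdm5a, and Rb1 (-0.19 ± 0.45), the retinoblastoma gene, then Rb1 (0.48 ± 0.45) and Rbbp4, a histone-binding subunit (-0.49 ± 0.20, unadjusted p = 0.0248). 15 of 18 demethylase genes for other lysines had a region, and 5 lay higher postnatally (median -0.06) and 6 pre- and postnatally (median -0.03). The ends were Kdm4b (0.20 ± 0.12) and Jmjd1c (-0.59 ± 0.53), then Kdm6b (0.41 ± 0.20) and Hr (-0.31 ± 0.24). The ends with the largest SE had low signal, with a median over postnatal libraries of 10.7 per kb at Jmjd1c and 14.7 per kb at Rb1. No gene of these lists passed over all regions.

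**Figure D5:**
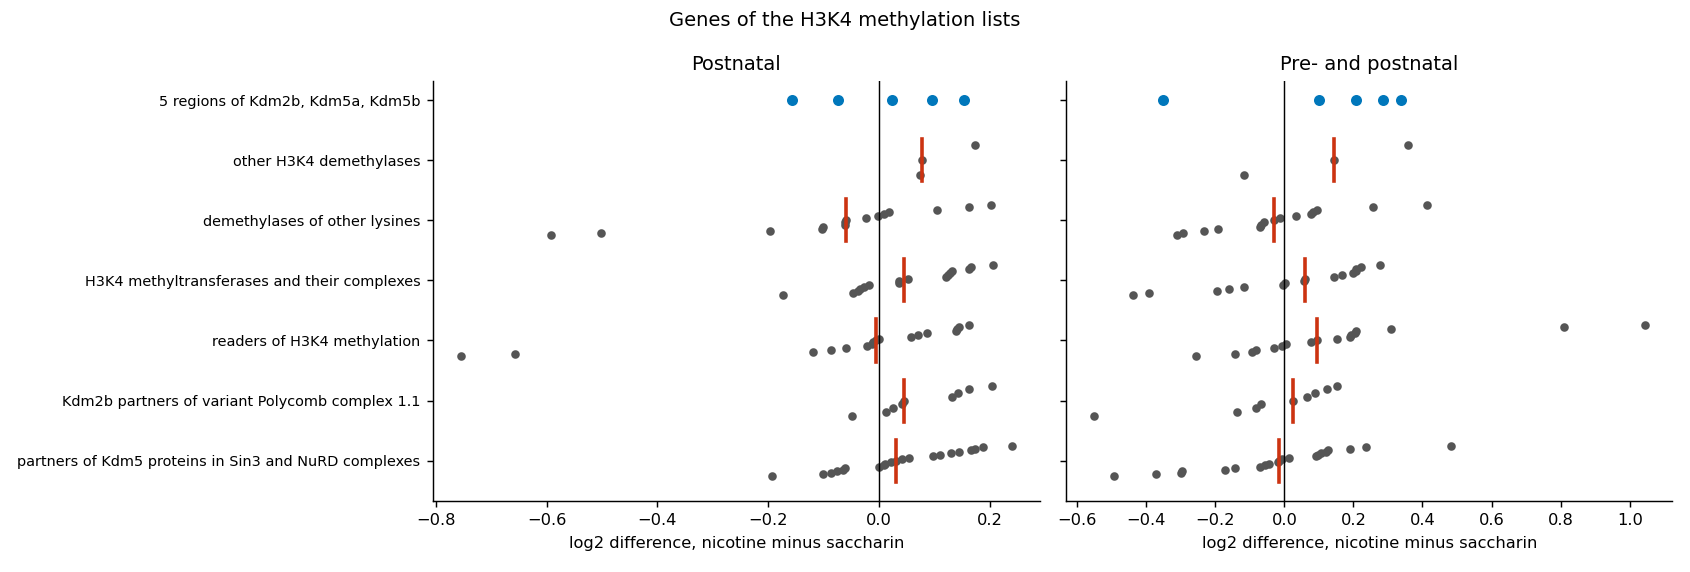
log2 difference of nicotine minus saccharin for each gene of 6 lists, at the gene's strongest region, after postnatal (left) and pre- and postnatal exposure (right); each dark grey point is a gene, red bars are list medians and blue points are the 5 regions of Kdm2b, Kdm5a and Kdm5b. The medians lie between -0.06 and 0.14, close to the median of all regions, and no point passed the test.

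The genes whose pattern was most like each member were sought by the Pearson correlation over the 10 samples, centred within each table, among 9116 to 9118 regions with gene names and a mean of at least 20. For Kdm2b, at its internal region, they were Ly6h (r = 0.96), Agphd1 (0.93) and Metrn (0.92), where 1% of regions exceeded 0.77. For Kdm5a they were Syt3 (0.96), Btbd17 (0.95) and Ptpn18 (0.95), where 1% exceeded 0.80. For Kdm5b they were Pcnxl2 (0.94), Bzw1 (0.92) and Epc2 (0.88), where 1% exceeded 0.76. With 10 samples and this many regions, values of this size describe these libraries and carry no test.

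Markers of other cell types are given beside the members. After postnatal exposure the summed signal of 4 oligodendrocyte markers was 302 to 361 in the nicotine and 324 to 383 in the saccharin libraries, that of 4 endothelial markers 156 to 193 and 146 to 192, and that of 3 striatal markers 167 to 212 and 177 to 208. After pre- and postnatal exposure these were 156 to 222 and 166 to 174, 111 to 127 and 104 to 119.5, and 88.3 to 93.9 and 89.5 to 109. The ranges overlapped between treatments for each list, and no marker passed in limma. Their part in the values of the members was not tested.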

How the data were processed

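H3K4me3 ChIP-seq was analysed from 2 deposited tables, 1 per exposure, each made of 19203 rows of which 14881 held values and 4322 repeated regions with empty values and were left out. The authors deposited a signal per region, that is read counts after an adjustment, on build mm9. The tool, per the submitters' processing notes, was edgeR. The values are not whole, and the tables were adjusted separately. Aligner, peak caller, versions and filters: not given in the sources used here. Per the labels' protocols, 50 mg of tissue was fixed, and fragments of 170 to 300 bp were sequenced after 18 cycles of PCR.

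Groups were taken from the labels. Values were tested on the log2(value + 1) scale, which understates changes of low regions, with limma 3.58.1 with trend in R 4.3.3, over regions with at least 1 in as many samples as the smaller group, two-sided, with Benjamini-Hochberg adjustment over all regions and a threshold of 0.05. The count model planned for whole counts was not used. Postnatal libraries within counting noise (a ratio under 1.5 over regions with a mean of 10 to 1000) were averaged. Replicate numbers did not pair samples (correlation of deviations -0.49 for the averaged postnatal samples, and -0.10 and -0.08 pre- and postnatally). With 2 samples per group the crossed postnatal pairs then have 0.49, and the main fit did not model this crossed pairing. Ratios and correlations used exact permutation tests in Python 3.11.15 and SciPy 1.17.1, and figures matplotlib 3.10.9. The fits were also run on simulated data with independent noise in each sample. That simulation lacks the crossed pairing, so it does not show how the fits behave with it. Named were all regions of the members, their nearest regions, the highest and lowest gene of each list per exposure, and the 3 genes of most similar pattern. The members and lists were chosen with earlier results of these data known. Alternatives were other pseudocounts (0.5), filters (none, 10) and scaling, no trend, separate libraries, blocks, share terms, summed regions and left-out samples.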

Additional observations from a re-analysis of the deposited data

How the results depend on the processing

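The direction at each of the 5 regions, in each exposure and between exposures, and of the Kdm2b ratios held in all 115 fits other than those that left out a sample, and no region of Kdm2b, Kdm5a or Kdm5b passed in any fit (lowest adjusted p = 0.586, with all 8 postnatal libraries as separate samples). These fits include sums of the regions of a gene, set against its strongest region only: all of Kdm2b gave 0.07 and 0.15, where the internal region had 0.15 and 0.28 and the upstream region -0.16 and -0.35. Many of the 115 fits could not turn a direction. A filter or the trend leaves the estimate as it is, as do the postnatal share class and averaged-sample block. Agreement of these fits is no test of the direction. Leaving out a sample turned the direction in 11 of 110 fits. Over these fits the postnatal log2 difference ran from -0.32 to 0.17 at the middle Kdm2b region, from -0.065 to 0.11 at Kdm5a and from -0.052 to 0.24 at Kdm5b. The difference between exposures ran from -0.0040 to 0.30 at the internal Kdm2b region, from -0.0077 to 0.34 at Kdm5a and from -0.14 to 0.15 at Kdm5b (from -0.026 to 0.048 without a pre- and postnatal library, and -0.016 without postnatal nicotine libraries 1 and 2). At the internal Kdm2b region quantile normalization gave 0.08 postnatally in place of 0.15, and at Kdm5b 0.01 and 0.02 in place of 0.10 in each exposure. Over all regions, the count of 0 calls after postnatal exposure was 9 with the share class as a term, which is also the crossed pairing of the averaged samples, 1 with the replicate block over the averaged samples, 0 with the replicate block over 8 libraries, and 0 to 31 without a sample (31 without nicotine libraries 3 and 4, 7 without nicotine libraries 1 and 2). After pre- and postnatal exposure it was 1 without the trend, 0 with the replicate block, and 0 to 17 without a library (17 without nicotine library 1). The cause was not tested. Between exposures it was 0 in every fit. The Kdm2b ratio alternatives were chosen after seeing the data: its log2 difference ran from 0.14 to 0.48 postnatally and from 0.48 to 0.96 pre- and postnatally without a sample, and was 0.22 and 0.60 with quantile normalization. The median region had an unadjusted 95% interval of ± 0.39 postnatally and ± 0.54 pre- and postnatally on the log2 scale. Smaller differences were not detectable at a region of that spread even without adjustment. With adjustment over all regions the limit lies higher. In limma 281 regions postnatally and 534 pre- and postnatally had an unadjusted p under 0.05, and 0 passed.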

Other observations

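A few genes of the lists on histone methylation had log2 differences of opposite sign in the exposures and were picked after their values were seen. The sign was the same in both exposures at 50.2% of all regions. Ing4, a reader of H3K4me3 in acetyltransferase complexes, had a log2 difference of -0.75 ± 0.44 (SE) postnatally and 0.81 ± 0.39 pre- and postnatally. Sgf29 (Ccdc101 in the tables), which binds H3K4me3 in the SAGA complex, had -0.66 ± 0.27 and 0.21 ± 0.31. Kdm6b, an H3K27 demethylase, had -0.20 ± 0.14 and 0.41 ± 0.20. Per kb, the median signal over postnatal and over pre- and postnatal libraries was 17.8 and 21.5 at Ing4. It was 26.8 and 25.3 at Sgf29 and 47.7 and 32.1 at Kdm6b. The median region had 48.2 to 50.9 postnatally and 31.8 to 34.7 pre- and postnatally. None of these genes had an adjusted p under 0.05 in limma in either exposure or for the difference between exposures.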
